A study of Homo sapiens with 60 samples.

Results

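The long non-coding RNAs followed here are abundant or well studied in human cells. NEAT1, MALAT1 and KCNQ1OT1 are known mainly from the nucleus, and NORAD and OIP5-AS1 mainly from the cytoplasm. TUG1 is known from both, and MEG3 and HCP5 complete the list. These 8 RNAs were chosen as a list of names, from 58395 gene identifiers in the count table. All 8 passed the filter on low counts, which left 18985 genes for testing. The cells were HEK293A, an adherent line of human embryonic kidney origin, with the TDP1 gene disrupted by CRISPR/Cas9. TDP1 encodes tyrosyl-DNA phosphodiesterase 1, which removes trapped topoisomerase 1 from DNA ends. All groups carried this knockout, as 3 clones (C6, F7 and G6), so each clone stands for 1 cell lineage. Unedited cells were not analysed here. Each clone was left without treatment or was given 0.1% DMSO, 100 nM topotecan with 0.1% DMSO, 5 µM OL9-119 in 0.1% DMSO, or 100 nM topotecan with 5 µM OL9-119, for which the label names no DMSO. Exposure lasted 5 to 5.5 hours. Topotecan traps topoisomerase 1 on DNA, and OL9-119 is a compound known here by its code name. The 15 groups held 4 libraries each, called biological replicates in the labels, which do not say how the cultures were separated.

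Long non-coding RNAs act as RNA. NEAT1 is the scaffold of paraspeckles, nuclear bodies built on its long form by proteins such as NONO and SFPQ, and MALAT1 lies in nuclear speckles beside splicing factors. NORAD binds Pumilio proteins such as PUM2 in the cytoplasm, and OIP5-AS1, also called Cyrano, carries a site that pairs with miR-7 along most of its length. KCNQ1OT1 is the paternally expressed antisense RNA of an imprinted cluster, MEG3 is a maternally expressed imprinted RNA, TUG1 is a widely expressed RNA of nucleus and cytoplasm, and HCP5 is transcribed within the major histocompatibility complex. RNA was selected by its poly(A) tail, and counts were made per gene, so the short polyadenylated and the long form of NEAT1 were not told apart. In bulk RNA, fewer cells that express a gene and less RNA per cell cannot be told apart.

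The libraries held 4.62 to 20.9 M counts (median 11.4 M, where M stands for mega). At a common depth of 4.5 M counts, 14 libraries detected under 20000 genes (17454 to 19345) and the other 46 detected 20160 to 23640. Of these 14, 10 were of clone C6, 4 of G6 and 0 of F7, and they were spread over the treatments (2 to 4 in each). TDP1 itself lay between 17.8 and 42.3 CPM (counts-per-million, scaled by TMM factors) in all 60 libraries. It was 36.2 ± 3.52, 26.7 ± 2.31 and 32.2 ± 5.37 CPM with DMSO in C6, F7 and G6 (SD, n = 4). A count over the whole gene does not test a knockout made by a small change in an exon. All 10 markers of HEK293 cells were over 1 CPM (summed level 1460 to 2440 CPM). Of the 5 blood markers, 1 passed the filter and had a mean over 1 CPM, and their summed level was 0 to 4.48 CPM. PTPRC, the pan-leukocyte marker, was at 0 CPM with DMSO. Of the fibroblast markers, 3 of 5 passed the filter (16.3 to 45.5 CPM), and 0 of 3 hepatocyte markers passed it (0 to 1.29 CPM). Each of these sums overlapped between the 5 treatments.

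Set per kilobase of exon, the RNAs spanned nearly the whole range of expression. Exon length was taken over all annotated transcripts together (22.8 kb for NEAT1), so the level of a single form was not given. Poly(A) selection may also miss forms without such a tail, so the order holds for these libraries. MALAT1 stood highest at 112 ± 36.4 CPM per kilobase (SD, n = 60), above 98.8% of the genes tested, and NORAD followed at 79.8 ± 14.5, above 98%. TUG1 lay at 34.9 ± 3.94, NEAT1 at 23.6 ± 13.1, OIP5-AS1 at 8.29 ± 3.04 and HCP5 at 1.24 ± 0.824 CPM per kilobase. KCNQ1OT1 lay at 0.189 ± 0.0629 and MEG3 at 0.0156 ± 0.0163. In this order the libraries of NORAD did not overlap those of TUG1 (lowest 50.6 against highest 47.4 CPM per kilobase), and those of OIP5-AS1 did not overlap those of HCP5 (lowest 3.92 against highest 2.83). All other neighbours overlapped. The order also depended on the clone. In F7 the mean of NEAT1 (35.7) was close to that of TUG1 (34.9), whereas in C6 NEAT1 (7.38) was below OIP5-AS1 (11.1 CPM per kilobase).

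**Figure D1:**
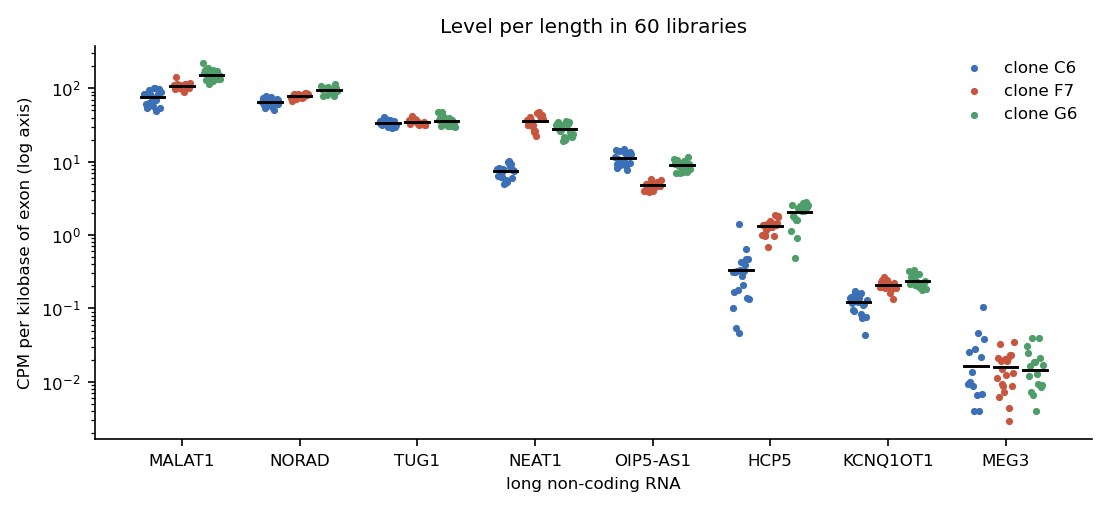
Level of each RNA in CPM per kilobase of exon (vertical log axis) in the 60 libraries, 1 point per library, coloured by clone, with black lines at the clone means. The 9 MEG3 libraries without a count cannot be drawn on a log axis. All NEAT1 libraries of clone C6 sit below the other clones, and all OIP5-AS1 libraries of F7 below C6 and G6. For HCP5 the mean is lowest in C6, with libraries that overlap the other clones.

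NEAT1 moved in opposite directions with the 2 compounds. It fell with topotecan and rose with OL9-119 in each of the 3 clones, and in the combination its mean lay close to that of the DMSO control. The gene (ENSG00000245532) occupies chr11:65422774-65445540 on the plus strand of hg38 and is a single unspliced block of 22.8 kb. Its long form and MALAT1 (ENSG00000251562, chr11:65497688-65506516, plus strand, 8.83 kb) lie in the same region and are known to end not in a poly(A) tail but in a triple helix, formed between 2 uridine-rich stretches and an adenine-rich end. The 100 bases that lead up to that end are shown because they are what sets these 2 nuclear RNAs apart in sequence. Capitals mark TTTTGCTTTT, taken as a core of the uridine-rich part, and the closing AAAAGCAAAA, and both sequences come from the GENCODE 29 transcripts (NEAT1 bases 22644 to 22743, MALAT1 bases 8256 to 8355).
NEAT1: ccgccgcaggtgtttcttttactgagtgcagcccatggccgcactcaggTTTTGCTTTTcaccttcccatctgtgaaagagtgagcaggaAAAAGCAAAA
MALAT1: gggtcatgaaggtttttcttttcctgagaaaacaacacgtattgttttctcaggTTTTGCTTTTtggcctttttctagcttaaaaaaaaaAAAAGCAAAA
The search covered transcripts annotated as long non-coding, of 26147 genes, read in the direction of transcription. Only these 2 genes held both stretches in this order within 100 bases. The stretches searched for were those marked in these 2 RNAs, so their presence here was given in advance. The run of A before the closing G is 13 bases in MALAT1 and 5 in NEAT1.

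NEAT1 values by library were as follows. In C6 the DMSO libraries held 142, 142, 165 and 179 CPM, the topotecan libraries 113, 116, 120 and 130 CPM, and the OL9-119 libraries 190, 220, 226 and 230 CPM. In F7 they held 706, 726, 854 and 913 CPM with DMSO, 513, 572, 594 and 611 with topotecan, and 943, 1040, 1040 and 1070 with OL9-119. In G6 they held 599, 619, 656 and 728 CPM with DMSO, 442, 454, 484 and 487 with topotecan, and 746, 748, 800 and 813 with OL9-119. Every topotecan library lay below, and every OL9-119 library above, all 4 DMSO libraries of its clone. Averaged over clones, NEAT1 fell by 0.45 ± 0.05 (SE) on the log2 scale with topotecan (1.37-fold lower, adjusted p = 1.19e-09, edgeR quasi-likelihood test) and rose by 0.36 ± 0.05 with OL9-119 (1.28-fold higher, adjusted p = 1.15e-06, edgeR). Both comparisons use the same 12 DMSO libraries. Per clone the topotecan difference was -0.39, -0.48 and -0.48 and the OL9-119 difference 0.46, 0.36 and 0.25 in C6, F7 and G6 (SE 0.09 each). The tests of dependence on the clone did not pass (adjusted p = 1 for topotecan, adjusted p = 0.999 for OL9-119, edgeR).

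The comparisons within the combination use other libraries than the DMSO controls. Topotecan added to OL9-119 lowered NEAT1 by 1.26-fold (log2 -0.34 ± 0.05, adjusted p = 1.91e-06, edgeR), with all 12 combination libraries below the OL9-119 mean of their clone. The groups did not overlap in G6 and overlapped in C6 and F7. OL9-119 added to topotecan raised it by 1.39-fold (log2 0.47 ± 0.05, adjusted p = 1.51e-09, edgeR), and in all 3 clones the combination and topotecan groups did not overlap. Against DMSO, the combination left NEAT1 at a log2 difference of 0.02 ± 0.05 (95% interval -0.09 to 0.13, adjusted p = 0.853, edgeR). That average held unlike values. The combination libraries of C6 held 138, 170, 176 and 215 CPM and those of F7 866, 887, 905 and 974, both overlapping DMSO. Those of G6 held 493, 526, 542 and 585 CPM, all below the DMSO libraries of that clone. The differences were 0.15 ± 0.09, 0.18 ± 0.09 and -0.28 ± 0.09 in C6, F7 and G6, and their dependence on the clone did not pass (unadjusted p = 9e-04, adjusted p = 0.271, edgeR). The log2 interaction, which asks whether the compounds add up, was 0.11 ± 0.07 (adjusted p = 0.737, edgeR).

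**Figure D2:**
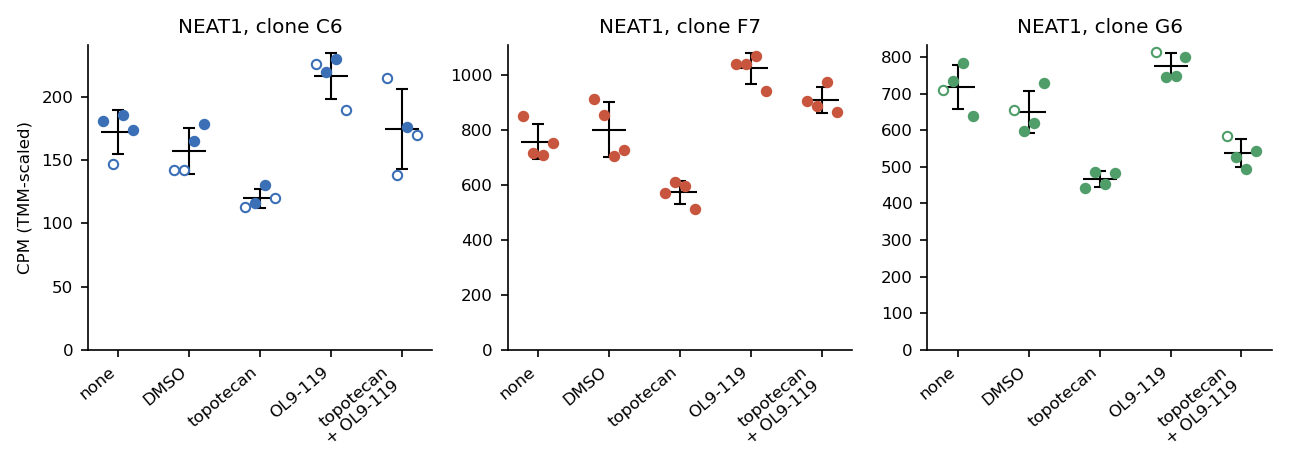
NEAT1 level in CPM (vertical axis from 0, its own scale per clone) by treatment in clones C6, F7 and G6, 4 libraries per group, with mean and SD as black bars. Open points are the 14 libraries with few detected genes; in each clone topotecan lies below DMSO and OL9-119 above it.

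Of the 15 paraspeckle proteins, 3 fell and 0 rose with topotecan (median log2 -0.07, all genes 0.02), and 5 fell and 0 rose with OL9-119 (median -0.10, all genes 0.01). With the combination 10 fell and 0 rose (median -0.20, all genes -0.01). Of all genes tested, 9.35%, 5% and 11.7% fell with topotecan, OL9-119 and the combination. SFPQ, which NEAT1 needs for its stability, fell by 0.23 with topotecan, 0.42 with OL9-119 and 0.60 with the combination on the log2 scale (adjusted p = 2.45e-07, 5.09e-15 and 5.92e-22, edgeR). SFPQ fell where NEAT1 fell and also where it rose. PSPC1, another core protein, fell by 0.21 with topotecan and by 0.31 with the combination, and HNRNPR fell by 0.20 and 0.23. NONO, the partner of SFPQ, named although not called, showed log2 differences of 0.02, -0.03 and -0.07 with topotecan, OL9-119 and the combination, none called.

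Of the 8 RNAs, 1 rose (HCP5) and 2 fell (NEAT1, TUG1) with topotecan, where 15.3% of all genes tested were called, 5.99% higher and 9.35% lower. With OL9-119, 2 rose (NEAT1, HCP5) and 2 fell (TUG1, KCNQ1OT1), where 9.47% of genes were called (4.47% higher, 5% lower). With the combination against DMSO, 1 rose (HCP5) and 2 fell (TUG1, KCNQ1OT1), where 21.2% were called (9.52% higher, 11.7% lower). Topotecan added to OL9-119 changed 2 (NEAT1 lower, NORAD higher), where 12.7% were called (5% higher, 7.72% lower). OL9-119 added to topotecan raised NEAT1, where 6.78% were called (3.33% higher, 3.45% lower). The medians over the 8 RNAs were -0.14, -0.04 and 0.05 for topotecan, OL9-119 and the combination against DMSO, and 0.02, 0.01 and -0.01 over all genes. DMSO against no treatment changed 0 of the 8 by edgeR, where 3 genes (0.0158%) were called. HCP5 was the 1 with an unadjusted p under 0.05 there (log2 -0.52 ± 0.25, unadjusted p = 0.0408, adjusted p = 0.976, edgeR), and DESeq2 called 0 as well. The interaction called 0 of 8 by edgeR and by DESeq2, where edgeR called 6 genes (0.0316%, with 0.00527% higher and 0.0263% lower). HCP5 (unadjusted p = 0.0015) and TUG1 (unadjusted p = 0.0467) lay under 0.05 there before adjustment, by edgeR. Dependence of a change on the clone called 0 of the 8 RNAs for each treatment by edgeR, where 0.137%, 0.0263% and 0.169% of genes were called for topotecan, OL9-119 and the combination. Before adjustment, HCP5 with topotecan and NEAT1 with the combination lay under 0.05, and DESeq2 also called 0 of 8. Among all 2625 annotated long non-coding genes tested, 57 rose and 49 fell with topotecan (2.17% and 1.87%), 74 rose and 24 fell with OL9-119, and 141 rose and 65 fell with the combination.

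**Figure D3:**
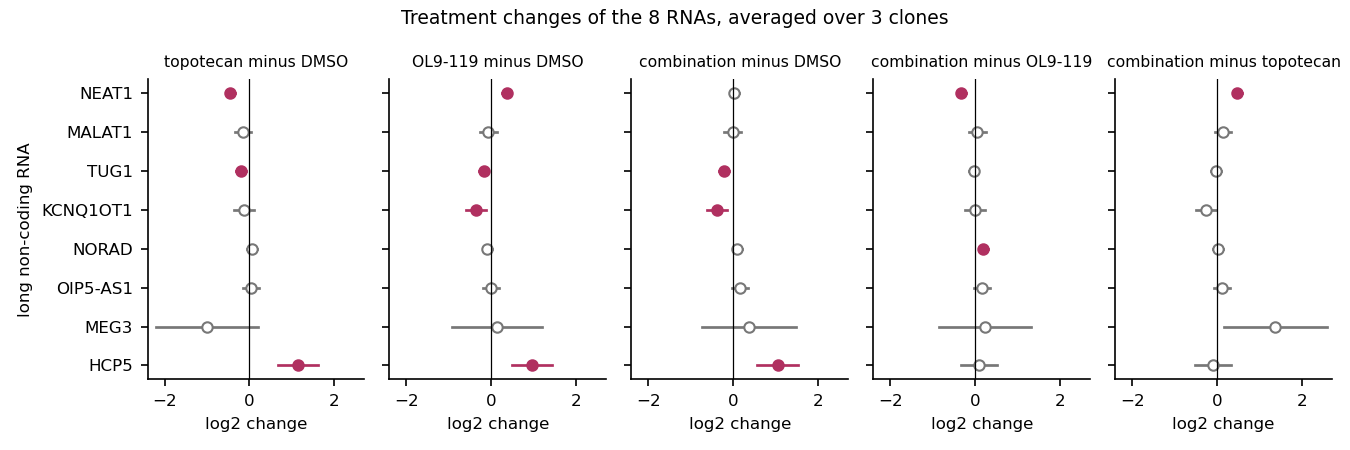
Log2 change (horizontal axis) of each RNA in 5 treatment comparisons averaged over the 3 clones, with 95% intervals from edgeR. Filled red points passed an adjusted p of 0.05 over all genes; NEAT1 lies left of 0 for topotecan against DMSO and for topotecan added to OL9-119, right of 0 for OL9-119 against DMSO and added to topotecan, and near 0 (0.02) for the combination against DMSO.

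HCP5 rose with all 3 treatments, by the largest factor of the RNAs that were called, from a low level. HCP5 (ENSG00000206337) is annotated on the plus strand at chr6:31400702-31477506, with 3.14 kb of exon in a span of 76.8 kb that overlaps MICA on the same strand, so reads of the 2 genes may be hard to assign. In G6, the DMSO libraries held 1.53, 2.90, 5.01 and 5.05 CPM. The topotecan libraries held 6.83, 7.29, 7.56 and 7.79, the OL9-119 libraries 6.69, 6.72, 7.4 and 8.65, and the combination libraries 7.09, 7.49, 8.16 and 8.87 CPM. No treated library of G6 overlapped DMSO. Without treatment, however, the G6 libraries held 3.53, 5.48, 5.8 and 8 CPM, a range that overlaps each treated group. In F7 the DMSO libraries held 2.15, 3.14, 3.65 and 4.38 CPM and those with topotecan 4.09, 4.59, 4.65 and 4.81, which overlap. In C6, DMSO libraries held 0.143, 0.170, 0.555 and 1.03 CPM, or 1 to 6 counts, and topotecan libraries 0.864, 1.06, 1.34 and 4.45 CPM. The C6 library at 4.45 CPM, replicate 1, stands apart and is one of those with few detected genes.

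Averaged over clones, HCP5 rose 2.22-fold with topotecan (log2 1.15 ± 0.23, adjusted p = 0.000152, edgeR), above the clone's DMSO mean in 12 of 12 libraries. It rose 1.93-fold with OL9-119 (log2 0.95 ± 0.23, adjusted p = 0.00392, edgeR; 11 of 12 libraries) and 2.06-fold with the combination (log2 1.04 ± 0.24, adjusted p = 0.000719, edgeR; 12 of 12). Without replicate 1 of C6 with topotecan the topotecan change was 0.95 (adjusted p = 0.00091, edgeR). The combination differed from OL9-119 by 0.09 ± 0.21 (95% interval -0.34 to 0.52) and from topotecan by -0.11 ± 0.21 (95% interval -0.53 to 0.32) on the log2 scale, neither of them called. The interaction was -1.06 ± 0.32, the direction of a combined change below the sum of the single ones, and did not pass (adjusted p = 0.575, edgeR). All 3 treatment comparisons share the DMSO libraries, where HCP5 was 1.43-fold lower than without treatment, a difference that was not called. Per clone the topotecan differences were 2.00 ± 0.51, 0.44 ± 0.34 and 1.01 ± 0.33 in C6, F7 and G6, and 1.4 ± 0.49 in C6 without its replicate 1. Their dependence on the clone had an unadjusted p of 0.0469 (edgeR), with an adjusted p that did not pass.

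**Figure D4:**
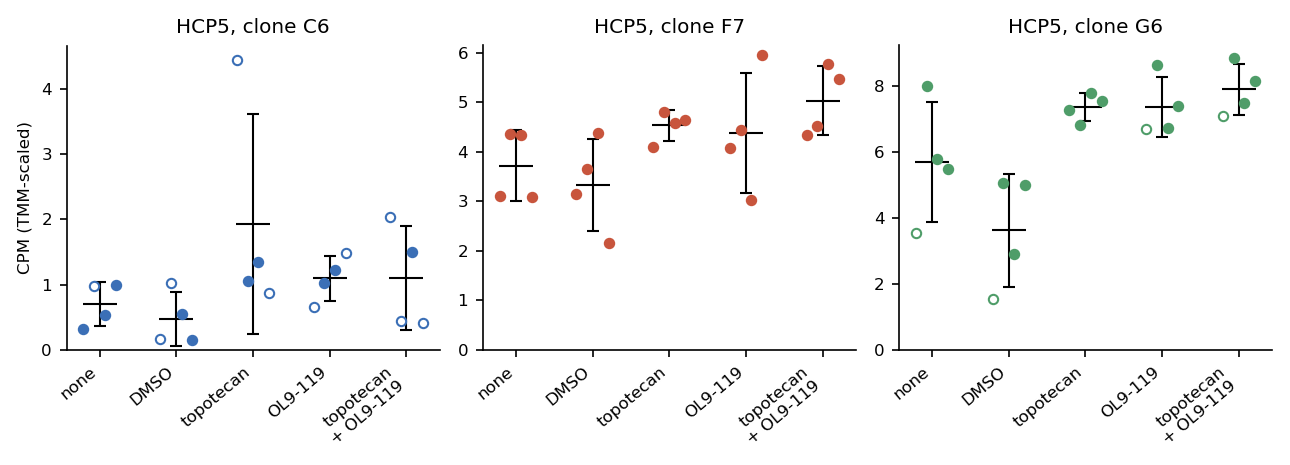
HCP5 level in CPM (vertical axis from 0, its own scale per clone) by treatment in clones C6, F7 and G6, 4 libraries per group, with mean and SD as black bars and open points for libraries with few detected genes. In G6 all treated libraries lie above all DMSO libraries but overlap the untreated ones. In C6 the DMSO mean is 0.473 CPM, and 1 topotecan library stands at 4.45 CPM.

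The genes around HCP5 gave other values. MICA, a stress-induced ligand of natural killer cells, fell by 0.45 with OL9-119 (adjusted p = 0.00062, edgeR) and by 0.28 with the combination, and had a log2 difference of 0.18 with topotecan that was not called. MICB fell by 0.17 with OL9-119, and HLA-B showed 0.15, -0.08 and 0.04 with topotecan, OL9-119 and the combination, none called. Of 15 genes of MHC class I and linked to interferon, 3 rose with topotecan (IRF1, 0.85, a transcription factor induced by interferon; HLA-E, 0.37; and TAP1, 0.29, a peptide transporter) and 0 fell. With OL9-119, 1 rose and 3 fell (median -0.07, all genes 0.01), and with the combination 2 rose and 1 fell (median 0.04, all genes -0.01). Over all genes, 15.3%, 9.47% and 21.2% were called with topotecan, OL9-119 and the combination.

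Targets of NF-kB, a transcription factor of inflammatory and damage signalling, were counted as a further list. Of all genes tested, 5.99%, 4.47% and 9.52% rose with topotecan, OL9-119 and the combination. Of 14 targets, 12 rose and 0 fell with topotecan (median log2 0.81, all genes 0.02). With OL9-119, 6 rose and 0 fell (median 0.26, all genes 0.01), and with the combination 13 rose and 0 fell (median 0.99, all genes -0.01). TNFAIP3, which encodes an inhibitor of the pathway, rose by 1.81 with topotecan and 0.27 with OL9-119, and the chemokine gene CXCL8 by 2.56 and 0.53. The 300 bases around the RefSeq start of HCP5 (GRCh38.p14, chr6:31462930-31463229, plus strand, 250 bases before the start and 50 after it) are shown because they hold, in capitals, a match to the kappaB consensus.
HCP5 promoter: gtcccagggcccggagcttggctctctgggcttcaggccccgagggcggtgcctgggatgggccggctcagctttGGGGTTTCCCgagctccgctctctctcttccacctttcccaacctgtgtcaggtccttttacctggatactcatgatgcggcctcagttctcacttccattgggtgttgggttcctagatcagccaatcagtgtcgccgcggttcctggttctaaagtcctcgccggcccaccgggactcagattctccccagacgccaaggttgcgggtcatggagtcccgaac
The match begins 175 bases before the start and reads as the consensus on both strands. Such a match on either strand occurs in 11.3% of 35116 promoters of this length and in 1 of 9 promoter entries of 6 of the RNAs. NEAT1 and KCNQ1OT1 were not looked at in this way. A link between NF-kB and the HCP5 values was not tested.

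TUG1 fell slightly in all 3 treatments. TUG1 (ENSG00000253352, chr22:30969245-30979395, plus strand, 10.2 kb) starts beside MORC2, which is read the other way. In C6 it held 349, 383, 386 and 412 CPM with DMSO and 304, 320, 341 and 346 with topotecan. In F7 it held 361, 365, 368 and 388 CPM with DMSO, 328, 331, 370 and 373 with topotecan, and 325, 337, 344 and 345 with OL9-119. In G6 it held 343, 410, 418 and 479 CPM with DMSO and 317, 326, 347 and 365 with topotecan. The topotecan group lay wholly below DMSO in C6 and overlapped it in F7 and G6. On average TUG1 was 1.15-fold lower with topotecan (log2 -0.20 ± 0.05, adjusted p = 0.00722, edgeR; 11 of 12 libraries below the DMSO mean of their clone). It was 1.14-fold lower with OL9-119 (-0.18 ± 0.05, adjusted p = 0.0198, edgeR) and 1.17-fold lower with the combination (-0.22 ± 0.05, adjusted p = 0.00147, edgeR), in 12 of 12 libraries each. The OL9-119 call ended with scaling by library totals (log2 -0.14, adjusted p = 0.0748, edgeR). It also ended without C6 OL9-119 replicate 3, G6 DMSO replicate 1 or G6 OL9-119 replicate 4 (adjusted p up to 0.0777, edgeR). MORC2 fell by 0.17 with topotecan (adjusted p = 0.018, edgeR) and was at 0.05 with OL9-119.

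KCNQ1OT1 fell with OL9-119 and with the combination. KCNQ1OT1 (ENSG00000269821, chr11:2608328-2699994, minus strand, 91.7 kb) lies inside KCNQ1, a potassium channel gene on the plus strand (chr11:2444684-2849110). Whether counting used the strand is not given in the sources used here. Reads of unspliced KCNQ1 may be counted with it. With DMSO it held 8.49, 13.1, 15.1 and 16 CPM in C6, 17.2, 20.2, 21.4 and 24.3 in F7, and 19.3, 23.0, 27.4 and 30.2 in G6. With OL9-119 it held 6.81, 7.81, 10.3 and 15.1 CPM in C6, 12.3, 14.7, 16.7 and 19 in F7, and 16.6, 18.2, 19.7 and 27.1 in G6. The groups overlapped in every clone, although 10 of 12 OL9-119 libraries and 12 of 12 combination libraries lay below the DMSO mean of their clone. The average change was 1.3-fold lower with OL9-119 (log2 -0.37 ± 0.12, adjusted p = 0.0297, edgeR) and 1.3-fold lower with the combination (-0.38 ± 0.12, adjusted p = 0.0144, edgeR). With topotecan it was -0.12 ± 0.12 and was not called.

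The OL9-119 call for KCNQ1OT1 was close to the threshold. It ended when any 1 of 12 libraries was left out (replicates 2 and 3 of C6 DMSO, C6 OL9-119 and G6 DMSO, replicates 1 and 2 of F7 DMSO, 1 and 4 of F7 OL9-119, and 2 and 4 of G6 OL9-119), with an adjusted p up to 0.0855 (edgeR), and with library totals (0.0526). Without the 14 libraries with few detected genes the change was larger, at -0.61 (adjusted p = 1.34e-05, edgeR). The host gene KCNQ1 showed another pattern. It fell by 0.42 with topotecan (adjusted p = 0.03, edgeR) and by 0.52 with the combination (adjusted p = 0.0042, edgeR), and was at 0.10 with OL9-119, not called. Of the other imprinted genes of the cluster, CDKN1C, a cell cycle inhibitor, showed -0.08, 0.14 and -0.04 and PHLDA2 showed 0.30, -0.30 and -0.15 with topotecan, OL9-119 and the combination, none called.

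NORAD was called in 1 treatment comparison and OIP5-AS1 and MALAT1 in none. NORAD (ENSG00000260032, chr20:36045622-36050960, minus strand, 5.34 kb, 1 exon) is known for repeated Pumilio response elements. The motif TGTANATA, with N for any base, was searched for in the direction of transcription. It occurred 15 times in NORAD, or 2.81 times per kilobase, and 0 to 9 times in the longest transcripts of the other 7 RNAs. The comparison took 748 other genes with a transcript of 4 to 7 kb annotated as long non-coding, and the longest such transcript of each. Of these, 36.4% held the motif, the median was 0 matches, the highest 16, and 2 held at least 15. Examples of 3 kinds are given with 8 bases on each side, in the letters of DNA, to show the element that the Pumilio proteins read (capitals).
NORAD bases 753 to 776: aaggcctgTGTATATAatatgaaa
NORAD bases 1233 to 1256: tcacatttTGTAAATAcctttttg
NORAD bases 1443 to 1466: gtatatagTGTACATAaaggacag

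NORAD was higher with the combination than with OL9-119 alone. The OL9-119 libraries held 270, 287, 346 and 374 CPM in C6, 392, 402, 404 and 413 in F7, and 425, 447, 492 and 494 in G6. The combination libraries held 324, 370, 372 and 379 CPM in C6, 434, 440, 457 and 458 in F7, and 486, 537, 545 and 618 in G6. The groups did not overlap in F7 and overlapped in C6 and G6. The difference was 1.14-fold (log2 0.19 ± 0.05, adjusted p = 0.0126, edgeR), with 12 of 12 combination libraries above the OL9-119 mean of their clone. In the separate set of libraries where topotecan was given without OL9-119, the difference from DMSO was 0.06 ± 0.05 (95% interval -0.05 to 0.17) and was not called. Against DMSO the combination stood at 0.09 ± 0.05, which passed, of the settings run, only with scaling by library totals (0.16, adjusted p = 0.0167, edgeR).

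The proteins that bind NORAD and OIP5-AS1, or that act with miRNAs, fell with topotecan. Of 9, 7 fell and 0 rose with topotecan (median -0.29, all genes 0.02), 3 fell and 0 rose with OL9-119 (median -0.06, all genes 0.01), and 8 fell and 0 rose with the combination (median -0.34, all genes -0.01). PUM2 fell by 0.44 with topotecan and 0.34 with the combination, and was at 0.01 with OL9-119, not called. RBMX, which binds NORAD in the nucleus, fell by 0.29, 0.17 and 0.41 with topotecan, OL9-119 and the combination. AGO2, the Argonaute protein that cuts RNA, fell by 0.32, 0.19 and 0.37. The shares of all genes that fell were 9.35%, 5% and 11.7% in the same comparisons.

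OIP5-AS1 (ENSG00000247556, chr15:41283990-41309737, plus strand) has 12.7 kb of exon in a span of 25.7 kb and overlaps the end of OIP5, which is read the other way. Its site for miR-7 is shown under the miRNA, with the seed (bases 2 to 8 of the miRNA) and its match in capitals. The miRNA is from RefSeq, in the letters of RNA, and the site from the GENCODE 29 transcript (bases 2869 to 2894), in those of DNA.
miR-7: uGGAAGACuagugauuuuguuguu
OIP5-AS1 site: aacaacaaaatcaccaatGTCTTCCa
Pairs were counted over bases 2 to 24 of miR-7, without base 1. Unpaired bases of the site were allowed after the seed, and the best fit was taken. By this count the site has 22 pairs, and the other 2 seed matches in the transcript have 12 and 14. The level of miR-7 itself was not measured in poly(A) RNA. OIP5-AS1 differences from DMSO were 0.03 ± 0.09 with topotecan, -0.01 ± 0.09 with OL9-119 and 0.15 ± 0.09 with the combination (95% interval -0.04 to 0.34), none called. MALAT1 differences were -0.15 (95% interval -0.35 to 0.04), -0.07 (-0.26 to 0.12) and -0.02 (-0.21 to 0.17) with topotecan, OL9-119 and the combination. A change of the size seen in NEAT1 with topotecan (-0.45) lies outside each of these MALAT1 intervals, while one of the size seen in TUG1 (-0.20) lies inside each. Of 10 nuclear speckle proteins, 1 rose and 2 fell with topotecan, 0 rose and 4 fell with OL9-119, and 1 rose and 4 fell with the combination (medians 0.03, -0.10 and -0.01, all genes 0.02, 0.01 and -0.01). Over all genes, 15.3%, 9.47% and 21.2% were called in these comparisons. SRSF2, a splicing factor, rose by 0.22 with topotecan and fell by 0.26 with OL9-119.

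Of 16 factors of nuclear RNA ends, m6A marking and decay, 2 rose and 1 fell with topotecan (median 0.09, all genes 0.02), 1 rose and 0 fell with OL9-119, and 2 rose and 1 fell with the combination. MTREX, the helicase that feeds RNA to the nuclear exosome, fell by 0.36 with topotecan, and POP1, a subunit of RNase P, rose by 0.22. Of 26 further long non-coding RNAs tested from a list of 27, 1 rose and 4 fell with topotecan. With OL9-119, 3 rose and 4 fell, and with the combination 4 rose and 3 fell. Their medians were -0.04, 0.02 and 0.01 (all genes 0.02, 0.01 and -0.01). Beside both lists, the shares of all genes called were 15.3%, 9.47% and 21.2% with topotecan, OL9-119 and the combination. EPB41L4A-AS1 rose by 0.35 with topotecan and 0.36 with OL9-119. PVT1, transcribed beside MYC and named after its values were seen, was lower by 0.27 with topotecan and higher by 0.24 with OL9-119 (adjusted p = 0.016 and 0.043, edgeR), the directions of NEAT1.

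MEG3 was at or near the limit of detection. MEG3 (ENSG00000214548, chr14:100779410-100861031, plus strand, 23.2 kb of exon) had 0 to 15 counts per library. It was at 0 in 9 libraries and at 3 counts or fewer in 33 of 60, where a count of 0 allows 0.143 to 0.649 CPM (counting error only). Its comparisons had SEs of 0.40 to 0.79 on the log2 scale and none was called. The topotecan difference of -1.01 ± 0.60 (95% interval -2.21 to 0.20) was not detectable at this depth, and was -1.78 without C6 topotecan replicate 2 and -0.51 without C6 DMSO replicate 4, not called in either. The imprinted neighbours DLK1 and RTL1 were also low, at 0.573 and 0.515 CPM with DMSO.

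The clones differed in most of these RNAs. Against F7, C6 had 1 of the 8 higher and 5 lower, where 66.8% of all genes tested were called (31.7% higher, 35.1% lower). Against G6, C6 had 1 higher and 6 lower, where 56.8% were called (27.4% higher, 29.3% lower). F7 had 1 higher and 5 lower than G6, where 48% were called (23.1% higher, 24.9% lower). Each comparison averages the 5 treatments and compares 1 clone with another, so it says nothing of the knockout. NEAT1 was lower in C6 by 4.83-fold against F7 (log2 -2.27 ± 0.04, adjusted p = 2.11e-45, edgeR) and by 3.75-fold against G6 (-1.91 ± 0.04, adjusted p = 2.71e-41, edgeR). Its 20 libraries ran from 113 to 230 CPM in C6 (median 172), 513 to 1070 in F7 (median 852) and 442 to 813 in G6 (median 630), so those of C6 did not overlap the others. Clone accounted for 91.8% of the variation of log2 NEAT1 and treatment within clones for 7.03%.

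HCP5 was also lowest in C6. There its level was 4.56-fold below that of F7 (log2 -2.19 ± 0.18, adjusted p = 7.2e-16, edgeR) and 6.72-fold below that of G6 (-2.75 ± 0.18, adjusted p = 1.05e-19, edgeR). Its 20 libraries ran from 0.143 to 4.45 CPM in C6 (median 0.986), 2.15 to 5.96 in F7 (median 4.35) and 1.53 to 8.87 in G6 (median 6.96), which overlap. KCNQ1OT1 in C6 was 1.72-fold below F7 and 2.00-fold below G6, MALAT1 1.41-fold and 2.00-fold, and NORAD 1.20-fold and 1.46-fold, all called. OIP5-AS1 went the other way. It was lowest in F7, with 49.7 to 74.1 CPM (median 60.7) against 96.3 to 187 in C6 (median 136) and 88.4 to 146 in G6 (median 112), so F7 overlapped neither. Here C6 was 2.32-fold above F7 (log2 1.21 ± 0.07, adjusted p = 2.01e-21, edgeR) and 1.25-fold above G6 (0.32 ± 0.07, adjusted p = 0.000147, edgeR).

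TUG1 differed little across clones, with medians of 340, 350 and 356 CPM in C6, F7 and G6. Its differences were -0.06, -0.11 and -0.06 for C6 against F7, C6 against G6 and F7 against G6, of which the second was called (adjusted p = 0.0217, edgeR). That call ended without G6 DMSO replicate 1 or G6 OL9-119 replicate 1 (adjusted p up to 0.0607, edgeR), in DMSO alone (-0.11, adjusted p = 0.444, edgeR) and with a term for the library-name prefix (-0.09, adjusted p = 0.0692, edgeR). F7 lay above G6 in NEAT1 (0.37) and below it in MALAT1 (-0.50), NORAD (-0.28), OIP5-AS1 (-0.89), HCP5 (-0.56) and KCNQ1OT1 (-0.22). This last call (adjusted p = 0.0402, edgeR) ended under 12 of 60 left-out libraries and 5 other settings. With DMSO libraries alone (4 per clone), the calls ended also for 3 other RNAs: NORAD in C6 against F7 (-0.18), OIP5-AS1 in C6 against G6 (0.27) and HCP5 in F7 against G6 (-0.12). Because 10 of the 14 libraries with few detected genes were of C6, the clone differences were also taken without them. NEAT1 was then at -2.20 and HCP5 at -2.26 for C6 against F7, while MALAT1 was further apart (-0.76 in place of -0.50), OIP5-AS1 closer to G6 (0.15 in place of 0.32) and TUG1 called against F7 (-0.12, adjusted p = 0.0085, edgeR).

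Over all long non-coding genes, C6 had 1114 lower and 345 higher than F7 (42.4% and 13.1% of 2625, median log2 -0.42, all genes -0.04). For that pair 35.1% of all genes tested were lower and 31.7% higher. Against G6, C6 had 769 lower and 294 higher (29.3% and 11.2%, median -0.24, all genes -0.02). There 29.3% of all genes were lower, the same share, and 27.4% higher. Without the 14 libraries with few detected genes, C6 had 43.7% lower and 10.2% higher than F7 (of 3292 such genes tested, median -0.53) and 27.9% lower and 8.75% higher than G6 (median -0.30). Neighbours of NEAT1 were lower in C6 too, by less than NEAT1, with LTBP3 as an exception. SLC25A45 was at -0.93 against F7 and -0.94 against G6 and FRMD8 at -0.52 and -0.61, all called, while LTBP3 was at 0.19 and -0.12, not called. At the OIP5-AS1 locus, OIP5 was at 0.26 and 0.06 and NUSAP1 at 0.57 and -0.07 for C6 against F7 and G6, and the first value of each was called. Next to KCNQ1OT1, PHLDA2 was at -1.55 and -1.42 and CDKN1C at -0.23 and -1.19, all called. MICA, which overlaps HCP5, was at 0.06 (not called) and 0.27 (called), against -2.19 and -2.75 for HCP5. Counts on the paraspeckle list went partly against NEAT1, with 10 of 15 proteins higher and 4 lower in C6 than in F7 (median 0.20). Of all genes tested, 31.7% were higher and 35.1% lower there.

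The genes closest in pattern to each RNA over the 15 group means were taken from genes with a mean of at least 2 on the log2 CPM scale. These correlations are descriptions and largely follow the clone differences. NEAT1 was closest to COQ5 (r = 0.99), BMAL1 (0.989) and MBP (0.977), and within clones these had r of 0.87, 0.87 and 0.86. BMAL1, a core gene of the circadian clock, was at -0.24 with topotecan and 0.20 with OL9-119 on the log2 scale, and at -1.52 and -1.19 in C6 against F7 and G6. It was picked for its likeness to NEAT1 over these same groups, so these values add no support. TUG1 was closest to CDKN3 (0.924), FAR1 (0.922) and DICER1 (0.921), with r of 0.91 each within clones. DICER1, which encodes the nuclease that makes miRNAs, was at -0.25 and -0.20 with topotecan and OL9-119. HCP5 was closest to PLEKHG5 (0.975), KCNQ1OT1 to DDB1 (0.975), MALAT1 to UBE2T (0.983), OIP5-AS1 to COCH (0.991), NORAD to RPS3A (0.96) and MEG3, with its few counts, to COX15.

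Between replicates of the same group, MALAT1, TUG1, NORAD and OIP5-AS1 deviated together, and no such relation was found for NEAT1 over all libraries. The deviations of log2 CPM from the group mean were compared over the 60 libraries for 28 pairs of RNAs. NORAD and OIP5-AS1 had Pearson r = 0.89 and Spearman rho = 0.86 (permutation p = 1e-05 for each, the smallest that 100000 permutations within groups can give, adjusted p = 4.67e-05 over the 28). For the 6 pairs of these 4 RNAs r lay between 0.76 and 0.89 and rho between 0.75 and 0.86, with the same permutation p. Without the 2 libraries farthest from the median, NORAD and OIP5-AS1 had r = 0.87, without the 14 libraries with few detected genes 0.85, and within the library-name prefixes L01, L02 and L03 (20 libraries each) 0.75, 0.94 and 0.86. NEAT1 against MALAT1, TUG1, NORAD and OIP5-AS1 had r of -0.14, -0.17, -0.16 and -0.26 (permutation adjusted p of 0.614, 0.484, 0.515 and 0.209; rho -0.11, -0.20, -0.17 and -0.27). The prefixes differed here, with r of 0.19, -0.21, 0.11 and 0.15 within L01, -0.58, -0.54, -0.54 and -0.61 within L02, and -0.06, -0.11, -0.21 and -0.43 within L03. KCNQ1OT1 stood between, with r of 0.50 with NORAD (rho 0.56, permutation adjusted p = 0.00324).

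These 4 RNAs were also higher in libraries with fewer detected genes. OIP5-AS1 had r = -0.81 and rho = -0.80 with the number of genes detected at 4.5 M counts (permutation p = 1e-05, adjusted p = 5.33e-05 over 16 relations). TUG1 and NORAD had r = -0.76 each and MALAT1 -0.70, whereas NEAT1 had r = 0.34 (rho 0.37, permutation adjusted p = 0.0468). Without the 14 libraries r was -0.71 for OIP5-AS1, and within the name prefixes it was -0.65, -0.89 and -0.88. With the log2 library total, r was -0.57 for NORAD, -0.45 for OIP5-AS1 and MALAT1, -0.43 for TUG1 and 0.40 for NEAT1. Their permutation adjusted p lay at or below 0.0104 over the same 16 relations. Within L01 the r of the 4 RNAs lay between -0.08 and 0.15, and that of NEAT1 was 0.53. The libraries share their depth and scaling with every gene counted in them, and the part of library quality in these deviations was not tested. In clone G6 the library of replicate 4 held the lowest NORAD, TUG1 and OIP5-AS1 of its group in 5 of 5 treatments, and replicate 1 the highest NORAD and TUG1 in 5 of 5. The permutations treat the libraries of a group as exchangeable and take no account of such recurrence over groups, so their p-values may be too small. Between replicates, the pooled SD on the log2 scale was 0.13 for NEAT1 and TUG1, 0.14 for NORAD, 0.24 for OIP5-AS1, 0.25 for MALAT1, 0.32 for KCNQ1OT1, 0.56 for HCP5 and 0.88 for MEG3.

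**Figure D5:**
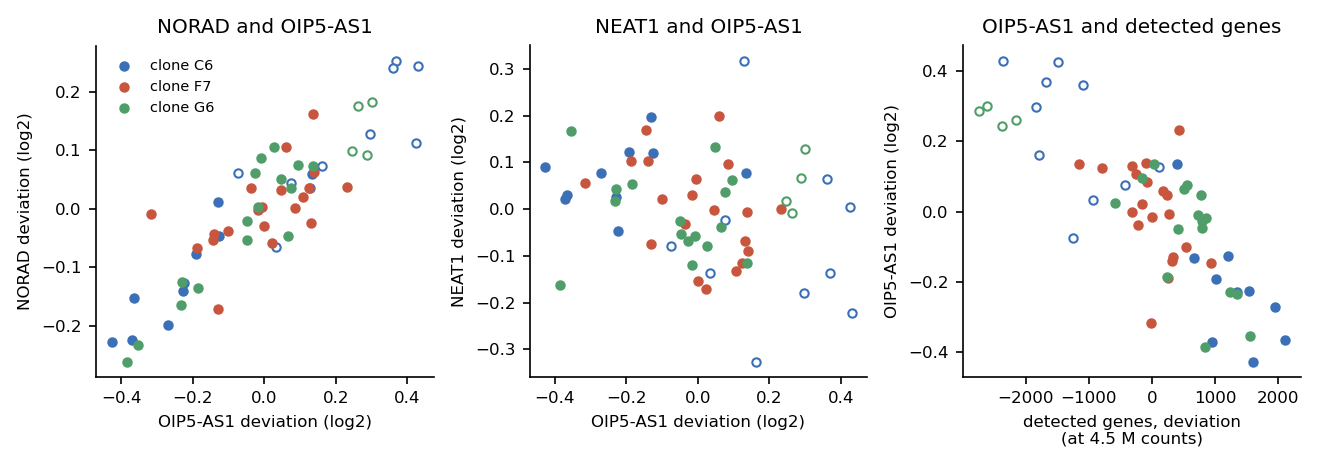
Deviation of log2 CPM from the group mean in 60 libraries, for NORAD against OIP5-AS1 (left), NEAT1 against OIP5-AS1 (middle), and OIP5-AS1 against the deviation in the number of genes detected at 4.5 M counts (right). Points are libraries coloured by clone, open for the 14 with few detected genes; NORAD and OIP5-AS1 rise together (r = 0.89) and OIP5-AS1 falls as more genes are detected (r = -0.81).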

How the data were processed

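The authors deposited a table of raw counts for each Ensembl gene in each of 60 libraries. Per the labels' protocols, RNA came from a Trizol extraction and was selected for poly(A) before directional library preparation. Per the submitters' processing notes, the tools were Picard 2.26.6, STAR 2.7.8 and FastQC 0.11.9, with hg38 as the build. How reads were counted per gene, and against which annotation, is not given in the sources used here. GENCODE 29, which holds 58275 of the 58395 identifiers, gave positions and exon lengths, and 57754 identifiers had a symbol.

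Counts were fitted with edgeR 4.0.16 (R 4.3.3; quasi-likelihood F test, 2-sided; TMM scaling; filterByExpr), with 1 mean per group for all 15 groups. Treatment comparisons average the 3 clones and clone comparisons the 5 treatments. Clone dependence was tested by an F test of the differences between clones. P-values were adjusted by Benjamini-Hochberg over the 18985 genes, and a gene was called at an adjusted p under 0.05. Log2 changes carry their SE and levels their SD. Library totals ran from 4.62 to 20.9 M counts. Over 90 replicate pairs, the chi-square of their counts was 2.23 to 53.6 times its degrees of freedom. Data simulated for topotecan minus DMSO from 18985 genes gave back 65.6% of 1.5-fold and 92% of 2-fold changes. The simulation used the same dispersion for every gene, so this recovery need not hold for RNAs with more spread, such as HCP5 and MEG3. Correlations between libraries were tested by permuting libraries within groups.

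Alternatives were RLE scaling, library totals, DESeq2 1.42.0, no filter on low counts, a replicate block, leaving out each library, leaving out the 14 libraries with few detected genes, and clone pairs in DMSO alone. A term for the library-name prefix, whose meaning the labels do not state, was added after seeing the data, as were HCP5 in C6 without its topotecan replicate 1 and the class of long non-coding genes without those 14 libraries. The RNAs and all gene lists were chosen with earlier results of these data known. Named genes are the 8 RNAs, TDP1, the 3 genes most alike each RNA, the listed neighbours, and up to 4 called genes per list and comparison with the smallest p. Other names are given for comparison beside these. P-values measure the spread between these libraries, which may be technical in part, and counting floors cover counting error only. Results for some genes are not reported here.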

Additional observations from a re-analysis of the deposited data

Results flagged for a closer look

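Within groups of 4 libraries, 4 of 120 combinations of RNA and group held a library far from the other 3 by Dixon's test, where chance flags about 5%. HCP5 in C6 with topotecan, replicate 1, lay at 4.45 CPM, with the next library at 1.34. MALAT1 in F7 with DMSO, replicate 3, lay at 889 CPM, with the next at 991, and NORAD in G6 with DMSO, replicate 4, lay at 433 CPM, with the next at 531. MEG3 in C6 with topotecan, replicate 2, lay at 0.151 CPM, with the other 3 at 0. Without the MALAT1 library the topotecan difference of MALAT1 was -0.17, and without the NORAD library that of NORAD was 0.04, neither of them called.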

How the results depend on the processing

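No called value of the 8 RNAs reversed under the alternatives run. Of their values, 734 kept their side of the threshold, 12 lost a call and 3 gained one, and with 1 library left out 6211 kept it and 29 lost a call. With library totals, OL9-119 called 2 of the 8 RNAs in place of 4 (median of all genes 0.06 in place of 0.01). Library totals moved the median of all genes most in C6 minus F7, from -0.04 to -0.16. Leaving out 1 library gave 2 to 4 for OL9-119, 6 to 7 for C6 minus G6 and 5 to 6 for F7 minus G6.

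Counts over all genes moved as follows. OL9-119 minus DMSO called 2820 genes without the libraries with few detected genes. DMSO minus no treatment (3 genes) called 13 without a filter, 0 without those libraries, 16 by DESeq2 and 0 to 11 with 1 library left out. The interaction (6 genes) called 40 without a filter, 14 by DESeq2 and 3 to 9 with 1 library left out. In DMSO alone, the clone pairs called 7508 (C6 minus F7), 4635 (C6 minus G6) and 3241 (F7 minus G6) genes, with 4 libraries per clone. Dependence on the clone called 52 genes without those libraries and 46 by DESeq2 for topotecan, 9 without a filter, 8 by DESeq2 and 3 to 6 with 1 library left out for OL9-119, and 51 by DESeq2 and 21 to 43 with 1 library left out for the combination. The causes were not tested.

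The labels do not say that replicate numbers pair the samples, so these were not treated as paired in the main fit. Same-numbered libraries were nevertheless more alike in their deviations (median r 0.04 against -0.01, and 0.09 against -0.02 in G6). Of 120 such pairs, 46 correlated over 0.1 (range -0.29 to 0.44), and 20 of 40 did so in G6. With a replicate block the genes called were 2455 for combination minus topotecan, 11 for DMSO minus no treatment, 14 for the interaction, 3843 for topotecan, 2600 for OL9-119 and 4931 for the combination against DMSO, and the counts of the 8 RNAs called were the same in every comparison. HCP5 in C6 (from 1 count) and MEG3 (0 to 15 counts) were limited by depth.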
